A study of Schizosaccharomyces pombe with 12 samples.

Results

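The comparison is that of fission yeast cells lacking *bmc1* (SPBC2A9.10) with the h+ wild type sequenced beside them, 3 libraries against 3 out of the 12 libraries of the series, over all 7004 genes of the count table. Both strains are haploid h+ with leu1-32, ura4-D18 and his3-D1, and their *ade6* allele is given as either of a pair, ade6-M210 or ade6-M216. The deletion strain carries in addition NatMX6 where *bmc1* had its open reading frame, and it descends from a sporulated diploid. How the wild-type strain was derived is not stated. The deletion cannot be told apart from any other difference between these 2 strains. Cells were grown in rich medium at 32 °C in cultures of 250 ml. The study describes the replicates as independent cultures. The other 6 libraries, *thc1*Δ and its own wild type, serve here only for values set beside those of *bmc1*Δ. Those strains are h- with ade6-M216, leu1-32, ura4-D18 and his3-D1. In *thc1*Δ cells the his3+ gene replaces the *thc1* open reading frame, so mating type and marker differ from the *bmc1* comparison.

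Bmc1 belongs to the Bin3 family. Its metazoan relative MePCE places a methyl group on the phosphate at the 5′ end of the 7SK RNA and of U6, RNAs made by RNA polymerase III. In 7SK particles MePCE sits beside the La-related protein LARP7, and in fission yeast Bmc1 joins the LARP7 relative Pof8 and Thc1 on TER1, the RNA subunit of telomerase, which RNA polymerase II makes and which carries an Sm and later an Lsm2-8 ring.

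Counts on genes summed to 33565122 to 40328959 per library. CPM are counts per 1000000 counts of the library, after TMM scaling in which the library factors lay between 0.987 and 1.02. Libraries that share a replicate number deviated together, most clearly those of replicate 1. The first principal component (44.2% of the variance) set the replicate 1 libraries of both strains apart from the other 4. The second (21.7%) separated the strains, widely in replicate 1 (-8.91 in the wild type, 9.07 in *bmc1*Δ) and hardly in replicate 3 (-0.47 and 0.65). The fit therefore takes the replicate number as a block and asks whether the 3 within-pair differences agree. A gene is called higher or lower in *bmc1*Δ cells where the quasi-likelihood test of edgeR gives it an adjusted *p* below 0.05, with no limit on the size of the difference. All *p* values in the text are adjusted over the 6232 genes tested and come from this test unless another is named.

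Under these terms 200 genes were called, 3.21% of those tested, with 74 higher (1.19%) and 126 lower (2.02%), and none differed 2-fold. The protein-coding genes among them rose by 0.11 to 0.54 or fell by 0.09 to 0.70 on the log2 scale. The count rests on the pairing and on the pairs used: without the block 1 gene was higher and 2 were lower, and without the replicate 2 pair 1 was higher and 4 were lower. The 200 genes had the same sign as here in both of those fits, which reuse libraries on which they were called. Regardless of the test, 896 genes (14.4%) had CPM values that did not overlap between the strains, 473 with *bmc1*Δ cells higher (7.59%) and 423 with them lower (6.79%).

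Telomerase RNA had the lowest *p* of all genes tested. TER1 stood at 161, 148 and 149 CPM in the wild-type libraries 1, 2 and 3 and at 87.0, 82.7 and 83.5 in *bmc1*Δ libraries 1, 2 and 3. The groups lay far apart and the 3 pairs gave nearly the same difference, -0.88, -0.84 and -0.84 on the log2 scale. The fit gave -0.85 with a standard error of 0.028 (edgeR, adjusted *p* = 8.34e-06), and it stayed between -0.89 and -0.84 in all alternatives tried. The protein partners of TER1 gave no call at the level of mRNA. *trt1*, the catalytic subunit, had 88.0, 96.7 and 94.6 CPM in the wild type and 89.1, 94.2 and 91.0 in *bmc1*Δ cells, with the groups overlapping. Log2 fold changes were -0.03 for *trt1*, -0.05 for *pof8*, 0.01 for *thc1*, -0.03 for *est1*, which recruits telomerase, and 0.03 for *tgs1*, which hypermethylates the cap of TER1, with adjusted *p* between 0.494 and 0.878 in edgeR. Among 9 shelterin and telomere capping genes none was called, with a median of -0.04, and *rif1* had the lowest *p* (-0.13, adjusted *p* = 0.0591 in edgeR).

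*bmc1* itself was counted at 25.5, 26.3 and 25.4 CPM in the wild type and at 15.4, 16.6 and 15.5 in *bmc1*Δ libraries, which lay below all wild-type values. The difference of -0.70 on the log2 scale, with a standard error of 0.053 (edgeR, adjusted *p* = 0.0016), corresponds to 61.5% of the wild-type level. The counts are for the gene as a whole and the deletion is of the open reading frame, and where along the gene the remaining reads lie cannot be read from a count per gene. The neighbour *iss9*, listed as a nuclear export factor, overlaps the end of *bmc1* on the other strand in the RefSeq annotation of ASM294v3 and also fell, by 0.22 (adjusted *p* = 0.0175). Whether the counts separate reads by strand is not stated in the sources at hand, and reads of the pair cannot be told apart over their shared stretch.

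**Figure D1:**
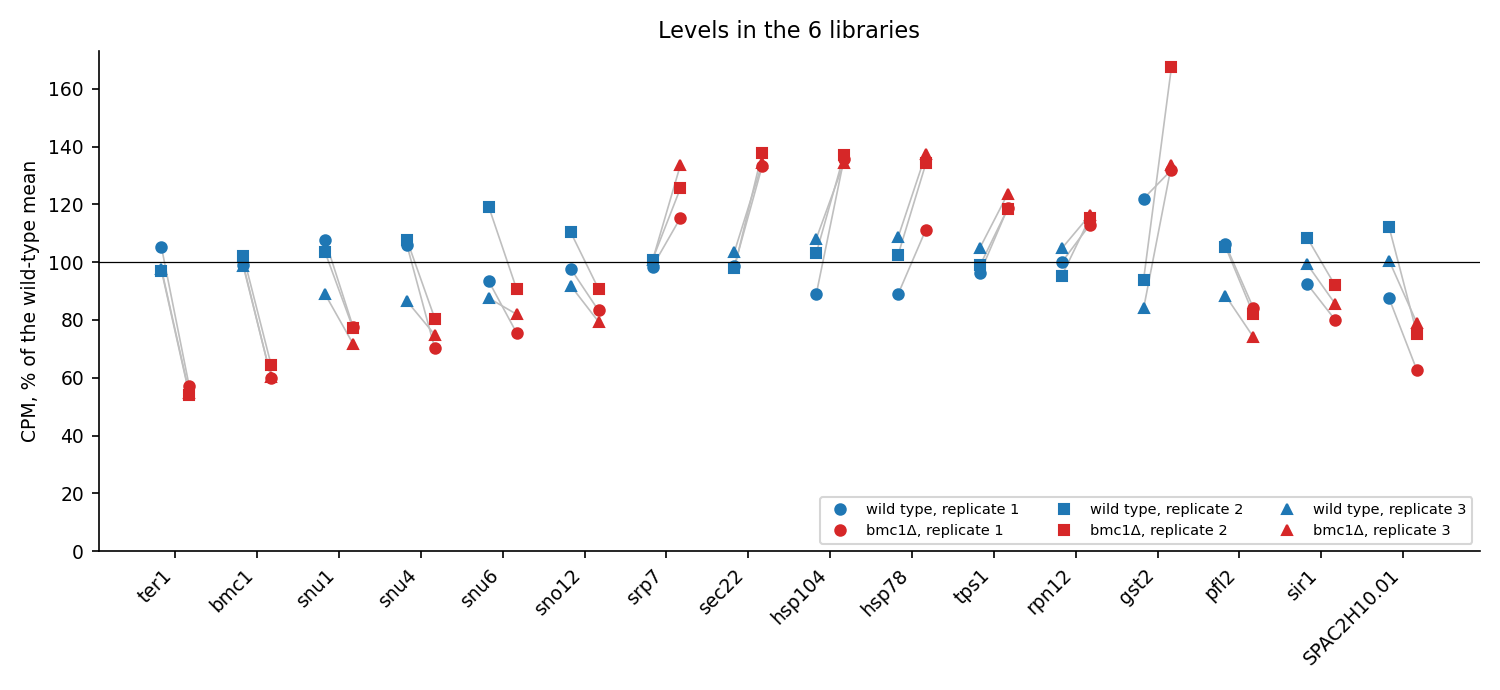
CPM of 16 genes in each of the 6 libraries, as a percentage of the mean of the 3 wild-type libraries (blue, wild type; red, *bmc1*Δ; the marker shape gives the replicate number and grey lines join the pairs). TER1 falls to 55.3% of the wild-type mean with little spread. The other called genes shift by a smaller step, and for some of them the pairs start from different levels.

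The genes called higher were concentrated beside *bmc1* in gene order. Of the 10 tested genes on each side of it, 8 of 20 were called higher (40%, compared with 1.19% of all genes tested), and only *iss9* was called lower. Among 6074 windows of 20 genes elsewhere in the genome, none held more than 2 genes called higher. Extending to 20 genes on each side gave 10 of 40. On the left lie *sec22*, a SNARE of traffic between endoplasmic reticulum and Golgi, the uncharacterized SPBC2A9.14, *hpz1*, a zinc finger protein, and *tvp23*, a putative transport protein. On the right lie *orc6*, a subunit of the origin recognition complex, *ess1*, *aly2*, an arrestin-like gene, and *exg3*, a glucanase of the cell wall. *sec22* had 60.0, 59.6 and 63.0 CPM in the wild type and 81.1, 83.9 and 81.7 in *bmc1*Δ cells (0.43 on the log2 scale with a standard error of 0.036, edgeR adjusted *p* = 0.00211). For *ess1* the values were 32.1, 28.9 and 29.7 CPM and 38.2, 39.0 and 38.9 CPM in the same order (0.36, adjusted *p* = 0.013). SPBC2A9.14, with few reads, went from 6.36, 6.12 and 6.88 CPM to 8.54, 8.16 and 11.1 (0.51, adjusted *p* = 0.0291). In all 3 genes the 2 strains did not overlap.

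The remaining called neighbours gave 0.33 (*hpz1*), 0.16 (*tvp23*), 0.35 (*orc6*), 0.24 (*aly2*) and 0.30 (*exg3*), and a little farther out SPBC2A9.02 (0.41) and *nap2* (0.15) were called higher as well. The elevation was not a property of every gene there. *plp2*, which lies between *sec22* and *bmc1*, stood at -0.01 (adjusted *p* = 0.867), *san1* at -0.01 and the gene *rep1* at -0.20 (adjusted *p* = 0.211). In *thc1*Δ cells, compared with their own wild type, the 8 neighbours gave between -0.52 and 0.31, and of the 8 only SPBC2A9.14 was called, in the opposite direction. The difference between the 2 deletions passed edgeR's interaction test over 12 libraries for 7 of the 8, among them *sec22* (0.34, adjusted *p* = 0.00572) and *ess1* (0.40, 0.00808). The exception was *exg3*, with 0.30 in *bmc1*Δ and 0.31 in *thc1*Δ cells (adjusted *p* of the difference 0.979). Of all genes tested, 17.3% passed, and the 8 were picked by calls on libraries that the interaction test uses again. All 8 neighbours stayed above 0 in all 14 alternatives, which refit the same libraries and so add little. The number that passed the test fell to 3 with trends in GC content and exon length removed and to 1 without the block. It was 2 in the fit to 12 libraries and 6 with cyclic loess. Without the replicate 1, 2 or 3 pair it was 7, 0 and 4. In DESeq2 1 passed, and the other 7 had no adjusted *p*. The NatMX6 cassette and the origin of the strain cannot be told apart from the deletion here.

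**Figure D2:**
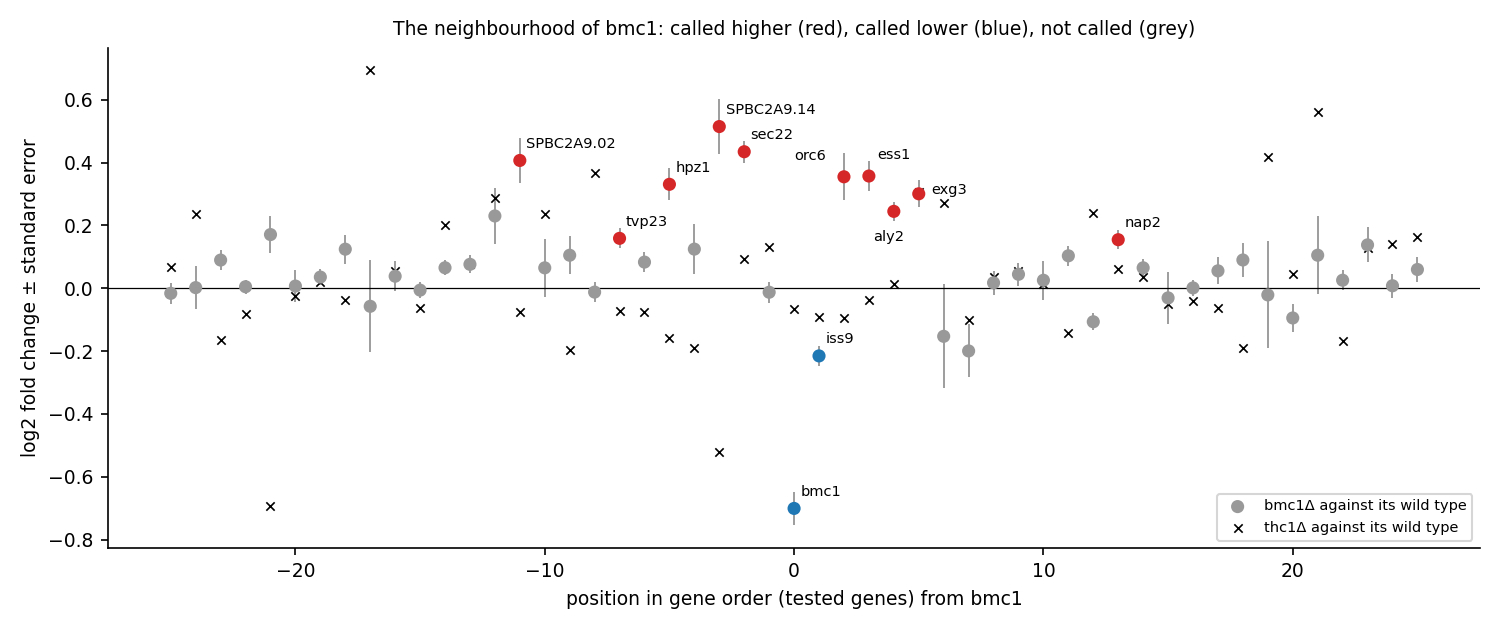
Log2 fold change with standard error of the 25 tested genes on each side of *bmc1*, by position in gene order (filled circles, *bmc1*Δ against its wild type; crosses, *thc1*Δ against its wild type). The genes called higher (red) cluster within 13 positions of *bmc1*, and *bmc1* and *iss9* are the genes called lower.

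Chaperones formed the clearest group of genes with higher levels. They fold or refold other proteins, and most are targets of the heat shock factor Hsf1. Of 15 genes of the list, 8 were called higher and none lower (53.3%, beside 1.19% of all genes tested). The list's median log2 fold change was 0.14, compared with -0.0016 over all genes tested. In the list 11 were higher in all 3 pairs, as were 1370 of all 6232 genes tested. *hsp104*, a disaggregase of the cytosol, had 216, 250 and 263 CPM in the wild type and 330, 333 and 327 in *bmc1*Δ cells. The strains did not overlap, and the fit gave 0.45 with a standard error of 0.049 (edgeR, adjusted *p* = 0.00653). Its mitochondrial relative *hsp78* went from 159, 183 and 194 CPM to 199, 240 and 246 (0.35, standard error 0.025, adjusted *p* = 0.0016). Here too each *bmc1*Δ library lay above all wild-type libraries, although libraries of replicate 1 were lowest in both strains. *ssa1*, an Hsp70, rose by 0.54, with 66.3, 90.5 and 85.5 CPM in the wild type and 127, 113 and 110 in *bmc1*Δ cells (adjusted *p* = 0.0372).

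The Hsp90 branch was included. *sti1*, which bridges Hsp70 and Hsp90, rose by 0.21, the p23 gene *wos2* by 0.20, *cdc37*, which brings kinases to Hsp90, by 0.14 and *hsp90* by 0.12, while the endoplasmic reticulum chaperone *bip1* rose by 0.16. For *hsp90* the libraries of the 2 strains overlapped (4454, 5200 and 5389 CPM against 4804, 5969 and 5636), as they did for *sti1*, *wos2* and *bip1*. Without the replicate block 0 of 15 chaperones were called, so all 8 calls rest on the pairing. Outside the list, *fes1*, which exchanges the nucleotide of Hsp70, rose by 0.38 (adjusted *p* = 0.00318), the DnaJ gene *psi1* by 0.38 (0.00587), the cyclophilin *wis2* by 0.22 (0.0106) and *ero11*, an oxidoreductin of the endoplasmic reticulum, by 0.23 (0.0106). Without replicate 1, 2 or 3 the list gave 10, 1 and 7 genes called higher. Its median stayed between 0.12 and 0.17. With trends in GC content and exon length removed, 3 were called and the median was 0.16.

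Genes of oxidative stress and of the core stress response, the set that the kinase Sty1 induces under many stresses, showed smaller groups. Of 17 oxidative stress genes 4 were called higher and none lower (23.5%, beside 1.19% of all genes tested), with a median of 0.08. They were *gst2*, a glutathione transferase (0.54), *obr1*, a quinone reductase (0.46), *grx1*, a glutaredoxin (0.21), and *gpx1*, a glutathione peroxidase (0.16). Their pairs were unequal: *gst2* had 264, 204 and 182 CPM in the wild type and 286, 363 and 289 in *bmc1*Δ cells, so that the log2 difference was 0.11 in pair 1 and 0.83 and 0.67 in the others. The reductase *obr1* showed the same shape, with 0.11, 0.65 and 0.60. Of 16 core stress genes, *tps1*, *gpx1* and *plr1* were called higher and none lower (18.75%, beside 1.19% of all genes tested). *tps1*, the synthase of trehalose, a sugar that protects proteins, had 259, 267 and 283 CPM in the wild type and 320, 320 and 333 in *bmc1*Δ cells (0.27, standard error 0.025, adjusted *p* = 0.00318). Its relative *tps3* rose by 0.21 (0.00737). The median of the core stress list was 0.22, 0.11 and -0.0036 in pairs 1, 2 and 3, so the list as a whole did not move in every pair. With GC and length trends removed 0 of 17 oxidative and 1 of 16 core stress genes were called, and both lists gave 0 without the block and without the replicate 2 pair.

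Proteasome subunits shifted together by a small step. Of 28 genes 5 were called higher and none lower (17.9%, beside 1.19% of all genes tested). In the list 22 were higher in all 3 pairs, as were 1370 of all 6232 genes tested. The median of the list was 0.11, with 0.11, 0.11 and 0.07 in the pairs. *rpn12*, of the regulatory particle, had 126, 120 and 132 CPM in the wild type and 142, 145 and 146 in *bmc1*Δ cells, without overlap (0.20, standard error 0.032, adjusted *p* = 0.0234). The core subunits *pre4* (0.18), *pre5* (0.16), *pre3* (0.12) and *pre10* (0.11) completed the called members of the list. The core subunits *pup1* (0.13), *pts1* (0.13) and *pam1* (0.14), missed by the list and added after their values were seen, were called higher too. After removal of the GC and length trends 0 of 28 subunits passed, and the median was 0.09. The count was also 0 without the block and without the replicate 2 pair, 3 without replicate 1 or 3, and 12 with library totals.

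**Figure D3:**
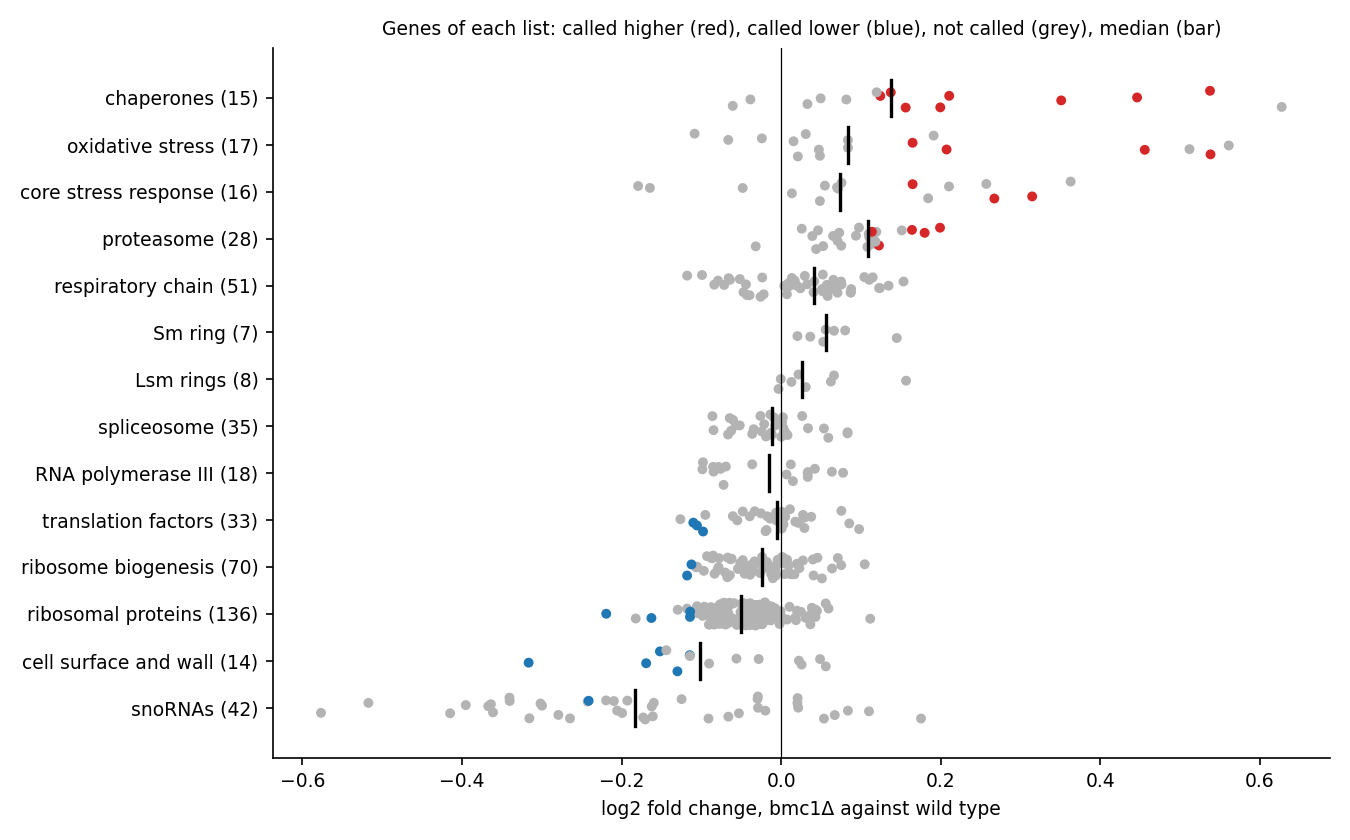
Log2 fold change of each tested gene of 14 lists, with the number tested in parentheses (red, called higher; blue, called lower; grey, not called; black bar, median). Chaperones, oxidative stress genes and proteasome subunits sit to the right of 0, and ribosomal proteins, cell wall genes and small nucleolar RNAs to the left.

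Genes of the cell surface held few of the calls lower, but a large share of their list was called. Of 14 flocculins and cell wall enzymes 5 were called lower and none higher (35.7%, beside 2.02% of all genes tested). The list's median was -0.10. *pfl2*, a flocculin, had 2549, 2531 and 2124 CPM in the wild type and 2022, 1972 and 1780 in *bmc1*Δ cells (-0.32 on the log2 scale with a standard error of 0.024, edgeR adjusted *p* = 0.0016). The α-glucan synthase *ags1* fell by 0.15, and the β-glucan synthases *bgs1*, *bgs4* and *bgs3* by 0.17, 0.13 and 0.11. These are among the longest mRNAs of the yeast: the list's median exon length was 3905 nt, compared with 1702 nt for all protein-coding genes tested. With trends in GC content and exon length removed, 0 of 14 were called and the median was -0.02.

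The shift with length went beyond the cell wall. When 4987 protein-coding genes were divided by exon length into 5 classes of nearly equal number, the median log2 fold change was 0.026, 0.033, 0.0033, -0.013 and -0.041 from the shortest to the longest. The longest class (2718 nt or more) held 74 of the 118 protein-coding genes called lower, 7.42% of its members, and 4 called higher. The shortest held 5 called lower and 21 called higher. In the longest class the median was below 0 in each pair (-0.048, -0.053 and -0.027). Called lower there were *mdn1*, the giant ATPase midasin of ribosome maturation (-0.14), the fatty acid synthase genes *fas1* (-0.10) and *fas2* (-0.09), which stood at 0.046 and 0.043 without a call once the trends below were removed, *rpb1*, the large subunit of RNA polymerase II (-0.13), and *pma1*, the proton pump of the plasma membrane (-0.15). *mdn1* had 1627, 1647 and 1533 CPM in the wild type and 1441, 1517 and 1392 in *bmc1*Δ cells, and its groups did not overlap. When each library's trends with GC content and exon length were removed, 17 genes were called higher and 13 lower, of which 16 and 13 are among the 74 and 126. Whether RNA integrity or library preparation differed between the strains was not tested. In the *thc1* experiment the median of the longest class was 0.020.

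**Figure D4:**
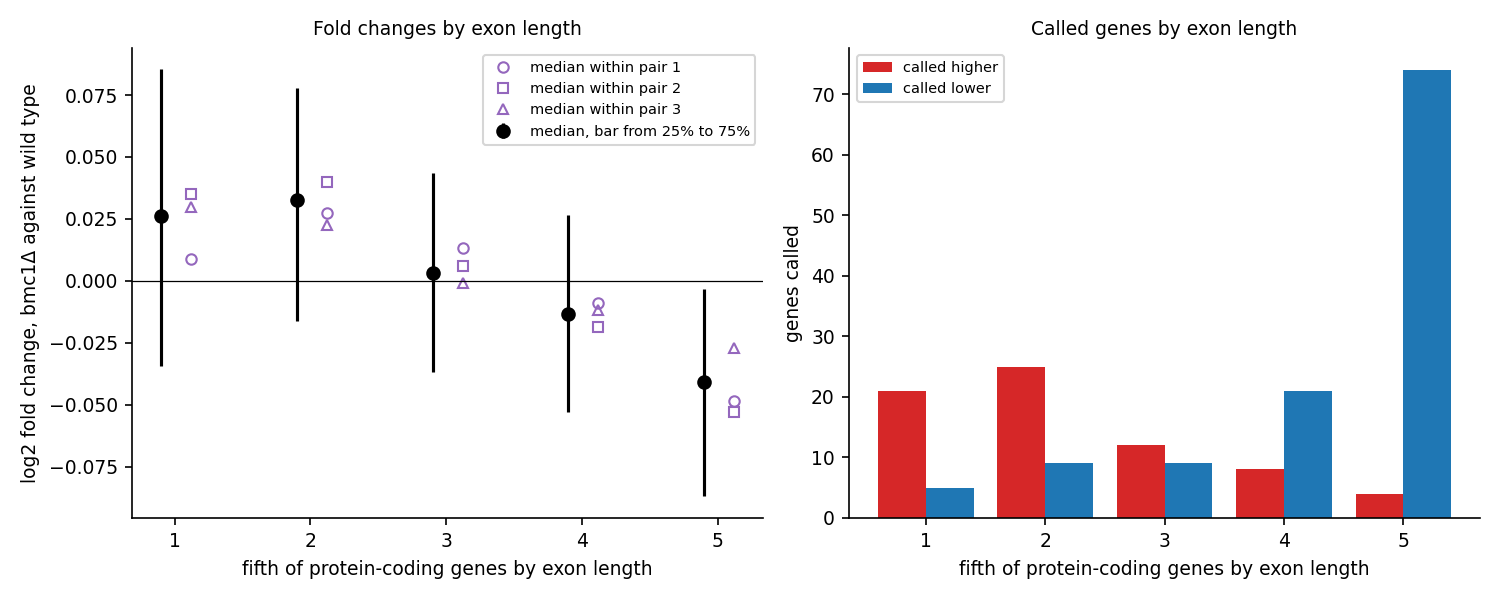
Left, median log2 fold change (black, with bars from the 25% to the 75% point) and the median within each pair (open symbols) in the 5 classes of protein-coding genes by exon length; right, the number of genes called higher (red) and lower (blue) in each class. The median falls from 0.033 in class 2 to -0.041 in the longest, which holds 74 of the genes called lower.

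Regulators and transporters were frequent among genes called lower. By the words of the annotated product, a grouping chosen after the values were seen, 13 of 123 transcription factors and repressors were called lower and none higher (10.6%, beside 2.02% of all genes tested), with a median of -0.04. Their median length was 2394 nt, and with the trends removed 3 were called lower and the median was -0.03. Transmembrane transporters, grouped in the same way, had 13 of 178 called lower and none higher (7.3%). Their median length was 2178 nt, and 1 was called lower with the trends removed. SPAC2H10.01, listed as a transcription factor, had 235, 302 and 271 CPM in the wild type and 168, 203 and 212 in *bmc1*Δ cells, so that the strains did not overlap (-0.47, standard error 0.040, adjusted *p* = 0.00235). It was called with the trends removed as well (-0.43, adjusted *p* = 0.00471). *esc1* fell by 0.31, *scr1*, the repressor of genes under glucose control, by 0.30, *mbx1*, a MADS-box factor, by 0.26, *ssn6*, a corepressor, by 0.25, and the calcineurin target *prz1* by 0.25. In all 5 of these the libraries of the strains overlapped: wild-type replicate 3 lay below *bmc1*Δ replicate 1, and the difference is one within pairs. Of 50 genes whose product reads RNA-binding protein, 5 were called lower and none higher (10%, beside 2.02% of all genes tested). They were *msa1*, *csx1*, *scw1*, *nrd1* and *rnc1*, with log2 fold changes from -0.32 to -0.18. The group's median was -0.02, its median length 2067 nt, and 1 was called with the trends removed.

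Ribosomal protein mRNAs were shifted slightly and evenly. Of 136 genes, 4 were called lower and none higher, a share of 2.94% beside the 2.02% of all genes. Their median was -0.05. Of the 136, 98 were lower in all 3 pairs, as were 1446 of all 6232 genes tested. The called members were *rps1002* (-0.22), *rpp203* (-0.16), *rpp201* and *rpl2801* (-0.11 each). These mRNAs are short, with a median exon length of 615 nt, and their median GC content was 44.2%, beside 37.2% for all protein-coding genes tested. With the trends removed 0 of 136 were called and the median was -0.03. Of 70 ribosome biogenesis factors *utp10* and *utp22* were called lower, with exon lengths of 5374 and 3596 nt. That is 2.86%, near the 2.02% of all genes. Of 33 translation factors *tef3* (elongation factor eEF3), *tef102* and *tif213* were called lower (-0.10, -0.11 and -0.11), a share of 9.09% beside the same 2.02%. In sulfate assimilation the genes for both subunits of sulfite reductase were called lower, *sir1* (-0.22) and *met10* (-0.11), as were the sulfate transporter *sul1* (-0.22) and *met1*, a uroporphyrin methyltransferase (-0.22). *sir1* had 1821, 2136 and 1956 CPM in the wild type and 1578, 1812 and 1687 in *bmc1*Δ cells, lower by 0.21 to 0.24 on the log2 scale in every pair. Of these only *met10* is in the list of 10 sulfur and S-adenosylmethionine genes, which held no other call and had a median of -0.02.

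Small stable RNAs were counted with unequal results. Of the spliceosomal RNAs, U4 (*snu4*) had 64.3, 65.4 and 52.6 CPM in the wild type and 42.6, 48.9 and 45.5 in *bmc1*Δ cells, and U1 (*snu1*) 17.1, 16.4 and 14.1 against 12.3, 12.3 and 11.4. Both were called lower without overlap, by 0.41 (adjusted *p* = 0.0211) and 0.40 (0.0234). U6 (*snu6*), the substrate of MePCE in metazoans, had 26.2, 33.4 and 24.5 CPM in the wild type and 21.2, 25.4 and 23.0 in *bmc1*Δ cells. Those values overlap, and the difference of -0.27 did not pass (adjusted *p* = 0.0683), although it did without the replicate 3 pair (-0.35, adjusted *p* = 0.0395). With trends in GC content and exon length removed it was 0.0071. In that fit U1 stood at -0.18 (adjusted *p* = 0.241) and U4 at -0.27 (0.0484). U2 (*snu2*) gave 0.12 (adjusted *p* = 0.153), and U5 was counted at under 1 CPM.

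Of 42 small nucleolar RNAs tested, 1 was called lower (2.38%, beside 2.02% of all genes tested), the box H/ACA RNA *sno12* (log2 fold change -0.24, adjusted *p* = 0.0043 in edgeR). Their median was -0.18, made up of -0.27, -0.26 and 0.05 in the 3 pairs, so that the third pair did not share the direction. With GC and length trends removed *sno12* stood at -0.15 (adjusted *p* = 0.0931), and the median of the 29 tested RNAs with snoRNA identifiers went from -0.21 to -0.04. The U3 genes *snu3* and *snu32* stood at 0.08 and -0.02. In contrast, *srp7*, the 7SL RNA of the signal recognition particle and a product of RNA polymerase III, rose from 1335, 1367 and 1364 CPM to 1563, 1702 and 1810 (0.32, standard error 0.032, adjusted *p* = 0.00464), with every *bmc1*Δ library above the wild type. The RNA of RNase MRP, *mrp1*, gave 0.07 and that of RNase P, *rrk1*, 0.01, neither of them called.

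The proteins that act on these RNAs gave no call: 8 Lsm genes had a median of 0.03, 7 Sm genes 0.06, with all 7 above 0, 35 spliceosome genes -0.01 and 18 genes of RNA polymerase III and its factors -0.01. Long non-coding RNAs by annotation numbered 1113 tested. Of these 4 were called higher (0.36%, beside 1.19% of all genes tested) and 5 lower (0.45%, beside 2.02%), TER1 and the 7SL RNA included. The largest rise among called genes was that of SPNCRNA.1271, listed as a possible alternative UTR, from 2.17, 3.01 and 2.88 CPM to 4.28, 6.37 and 4.30 (0.88, adjusted *p* = 0.016). Genes of mitochondrial DNA (31 tested, median -0.08), histones, G1/S genes, mating genes, copper and phosphate uptake genes held no call either. In all, 27 of 49 lists had none, and the 23 of them with 5 or more members tested had medians between -0.08 and 0.06.

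None of the marker genes of the genotype was called. *ura4* had 1 read in wild-type replicate 1 (0.0285 CPM) and none in the other 5 libraries, and *ade6*, *leu1* and *his3* lay between -0.06 and 0.01 on the log2 scale with adjusted *p* from 0.595 to 0.749. The receptor gene *map3* of h+ cells was counted at 16.5 to 20.3 CPM, and the h- pheromone genes *mfm1* and *mfm3* at no more than 1.48 CPM. Other genes of the h- type were not at such low levels: *mam1*, the M-factor transporter, had 73.1 to 94.9 CPM, the peptidase gene *sxa2* 16.7 to 19.7 and the P-factor receptor gene *mam2* 4.63 to 7.05, while *map2*, the P-factor gene of h+ cells, had 3.89 to 4.79. These levels do not by themselves tell the mating type. *mfm2* was uneven, at 2.08, 8.70 and 1.55 CPM in the wild type and 13.7, 1.94 and 1.86 in *bmc1*Δ cells, so that 1 library of each strain stood apart.

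Set beside *thc1*Δ cells, which were compared with wild-type libraries of their own, the genes called in *bmc1*Δ cells did not follow one pattern. TER1 fell in both, by 1.51 in *thc1*Δ and 0.85 in *bmc1*Δ cells, a difference of 0.66 (adjusted *p* = 0.000603 in edgeR's interaction test). Of the 126 genes lower in *bmc1*Δ cells, 22 had the same sign in *thc1*Δ cells and 104 the opposite one. There, 7 were called lower and 52 higher, while 15% of all genes tested in that experiment were called in either direction. Among those with opposite calls were *scr1* (-0.30 in *bmc1*Δ, 1.12 in *thc1*Δ), *esc1* (-0.31 and 0.86), SPAC2H10.01 (-0.47 and 0.57) and U4 (-0.41 and 0.26). Beside TER1, those called lower in both included the non-coding RNA SPNCRNA.1626 (-0.38 and -1.21) and *cbm1* (-0.37 and -0.96), which holds a cellulose-binding domain.

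Of the 74 genes higher in *bmc1*Δ cells, 42 had the same sign in *thc1*Δ cells and 32 the opposite one, with 2 and 7 called. The chaperone list had a median of 0.20 in *thc1*Δ cells with 0 of 15 called, *hsp104* for example at 0.87 (adjusted *p* = 0.143), and the difference between the deletions passed for 0 of 15. *gst2* went the other way, at -0.85 in *thc1*Δ cells (adjusted *p* = 0.000135). The difference between the 2 deletions passed for 120 of the 200 genes and for 17.3% of all genes tested. These 200 were called on libraries that the interaction test uses again.

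**Figure D5:**
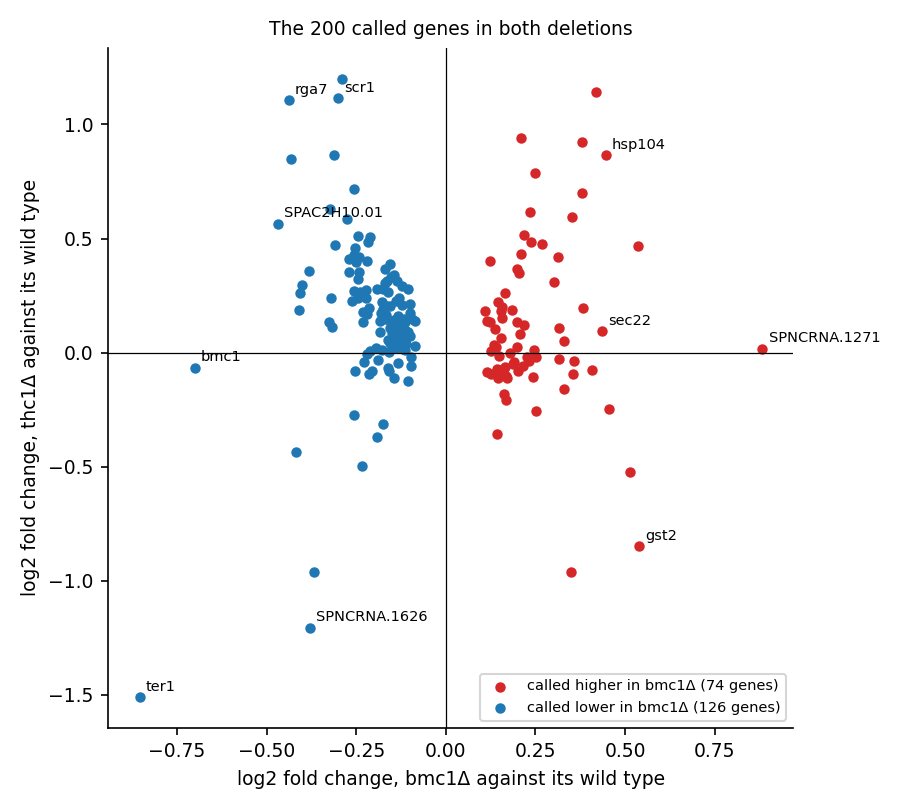
Log2 fold change in *bmc1*Δ cells (x axis) and in *thc1*Δ cells (y axis), each against its own wild type, for the 200 genes called in *bmc1*Δ cells (red, higher; blue, lower). TER1 lies low in both, and 104 of the 126 genes called lower lie above 0 on the y axis.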

How the data were processed

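Total RNA was cleared of ribosomal RNA and turned into stranded libraries by the authors, who aligned the single-end reads with STAR 2.5.2b to ASM294v2, and the deposited values are whole-number read counts per gene, not normalized. Which tool counted the reads, on which annotation and with which use of strand, was not given in the sources used here. Reads outside annotated genes are therefore missing, and overlapping genes are uncertain.

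Names, product descriptions, exon lengths and gene order came from RefSeq's annotation of ASM294v3, where 6846 genes matched by locus tag, 15 by synonym and 143 not at all. No coordinates were carried between builds.

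Libraries were grouped by their labels. The 6 libraries were fitted with edgeR 4.0.16 (R 4.3.3; TMM, filterByExpr with a minimum count of 10, glmQLFit and glmQLFTest) with the replicate number as a block. The numbers were taken to pair the samples because the deviations of same-numbered libraries from their group means correlated at 0.49, 0.30 and 0.23 over genes. Replicate 1 of either strain correlated at -0.38 to -0.30 with the other numbers. Replicates 2 and 3 were hardly set apart: wild-type 2 with *bmc1*Δ 3 gave 0.22, and wild-type 3 with *bmc1*Δ 2 gave 0.17. Deviations cancel out within each group of 3, so these values partly follow from replicate 1 standing apart. The pairing of replicates 2 and 3 is therefore weakly shown by them. In the *thc1* experiment, fitted with the same block, the same-numbered correlations were 0.00033, -0.0054 and -0.065. Benjamini-Hochberg adjustment ran over all genes tested. The standard error is the size of the log2 fold change over the square root of F. The difference between the deletions is an interaction over 12 libraries with blocks within each experiment. Replicates differed by more than sampling noise (chi-square per degree of freedom 6.75 to 39.6). The block takes up what the libraries of a replicate number share. The *p* values of this fit therefore measure how far the 3 within-pair differences disagree, not the full spread between cultures.

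Alternatives were no block, DESeq2 1.42.0, limma-voom (limma 3.58.1), RLE, library totals, no filter, a mean count of 50, 12 libraries, leaving out each pair, leaving out mitochondrial and ribosomal RNA genes, cyclic loess, and removal of GC and length trends (loess, span 0.5). Fits were tested on simulated data. The comparison and the 50 gene lists were chosen with earlier results of these data known. Named are *bmc1*, TER1, the snRNAs, 5 neighbours on each side, the 15 called genes of lowest adjusted *p* and 10 of largest change in each direction with 1 sign in all pairs, called list members or the list's lowest *p*, and marker and mating genes. The gene groups by product, the proteasome subunits beyond the list, *sul1*, *mrp1*, *rrk1*, *mdn1*, *fas1*, *fas2*, *rpb1*, *pma1*, *msa1*, *csx1*, *rnc1*, *prz1*, *mbx1*, *cbm1*, SPNCRNA.1626 and the neighbours beyond 5 positions were named after their values were seen. Figures used matplotlib 3.10.9.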

Additional observations from a re-analysis of the deposited data

Results flagged for a closer look

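Of 166 named genes tested, 80 had log2 fold changes that differed between *bmc1*Δ and *thc1*Δ cells in edgeR's interaction test, and 29 of these were called in opposite directions. Of all genes tested, 17.3% passed. The 2 shares are not alike, because 109 named genes were called in *bmc1*Δ cells, on libraries that the interaction test uses again. Given here are TER1 and the 13 with opposite calls that were named for a low adjusted *p* or a large change. The difference is *bmc1*Δ minus *thc1*Δ. Lower in *bmc1*Δ and higher in *thc1*Δ cells were *rga7* (difference -1.54), *esc1* (-1.18), SPAC2H10.01 (-1.03), the F-box gene *pof15* (-0.74), *ssn6* (-0.71), the kinase gene *oca2* (-0.68), U4 or *snu4* (-0.67), *sno12* (-0.59), *scw1* (-0.52), the transporter gene SPBC409.08 (-0.49) and *sir1* (-0.39). Higher in *bmc1*Δ and lower in *thc1*Δ cells were *gst2* (1.39) and SPBC2A9.14 (1.04). TER1, or *ter1*, fell in both, and less in *bmc1*Δ cells (0.66). Adjusted *p* values of these differences ran from 2.51e-05 for *esc1* to 0.00479 for *pof15*. The 2 experiments have their own wild-type libraries, so the experiment and the deletion cannot be told apart in these differences.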

How the results depend on the processing

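TER1 and *bmc1* passed with the same sign in the edgeR and voom alternatives, at -0.89 to -0.84 and -0.73 to -0.68. The counts of genes called higher and lower depend on the replicate block, on the pairs and on length: 1 and 2 without the replicate block, 2 and 2 with 12 libraries, 17 and 13 with GC and length trends removed, 53 and 69 with cyclic loess, and 98 and 74 with library totals, beside 74 and 126 with TMM. Leaving out 1 pair gave 1 to 102 higher and 4 to 157 lower, the lowest without replicate 2. At 2-fold, 1 gene passed in limma-voom and 0 to 4 when a pair was left out, compared with 0, although 1403 genes had an unadjusted *p* below 0.05. DESeq2 called 69 higher and 165 lower and gave no adjusted *p* for 3745 genes, *bmc1* among them. The difference between the deletions passed for 655 genes without the replicate block and for 232 to 1277 when a pair was left out, compared with 1085. The alternatives refit libraries on which the 200 genes were called, so a kept sign is not separate support. All 200 called genes kept their sign in 13 of the 14 alternatives, and 192 did with GC and length trends removed. There *ura1*, which fell by 0.09, stood at 0.037, *fas1* at 0.046 and *fas2* at 0.043, none of them called. Whether the length trend comes from RNA quality or library preparation was not tested. Of 109 named called genes, 78 no longer passed in that fit, 106 without the replicate block and 104 without replicate 2. Genes with few reads, such as U5, limit what could be detected.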
